A study of Mus musculus with 8 samples.

Results

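The myosin light chains and the kinases that phosphorylate them were described in aged fast muscle as 10 genes, chosen by symbol from the 16686 genes of the deposited table. They are the fast light chains *Myl1* and *Mylpf*, the slow light chains *Myl2* and *Myl3*, and the embryonic light chain *Myl4*. The others are *Myl6*, a smooth-muscle and non-muscle light chain, the essential light chain *Myl6b*, and the kinases *Mylk2*, *Mylk4* and *Mylk*. RNA was sequenced from the tibialis anterior (TA), a fast-twitch muscle of the lower hindlimb, of 8 male FVBN mice aged 22 months, with 4 wild-type mice (WT) and 4 mice without *Mybpc2* (C2-/-). In C2-/-, exons 2 to 22 of *Mybpc2*, the gene of fast myosin-binding protein C, are replaced by a loxP-flanked Neo cassette. The age is that of the sample labels and the design text, and another entry in the labels gives a younger age. The labels name no further allele, Cre driver, agent or treatment in either group, and each library was made from 1 mouse.

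The head of a sarcomeric myosin carries an essential and a regulatory light chain, which stiffen its lever arm. Calcium and calmodulin activate light-chain kinase, which phosphorylates the regulatory chain, and myosin phosphatase removes that phosphate. In fast muscle this phosphorylation is known to raise twitch force after repeated stimulation, and fast myosin-binding protein C binds to the same thick filament. The comparison of C2-/- with WT asked whether the RNAs of these light chains and kinases differ in aged muscle that lacks this binding partner.

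The start regions of a few genes are shown, to place the fast regulatory, fast essential and slow essential chains in the genome before their levels are given. Each sequence is the longest stretch without an annotated exon in the 250 bases before 1 listed RefSeq start site (GRCm38.p6), 5′ to 3′ on the strand of the gene, with capitals for an E-box, the CANNTG motif bound by myogenic factors. *Mylpf* is shown at chr7:127211358-127211607 on the plus strand, *Myl1* at chr1:66945144-66945290 on the minus strand and *Myl3* at chr9:110763428-110763645 on the plus strand. *Mylpf* and *Myl1* have more than 1 start site, and their windows lie inside the gene intervals given below.
Mylpf: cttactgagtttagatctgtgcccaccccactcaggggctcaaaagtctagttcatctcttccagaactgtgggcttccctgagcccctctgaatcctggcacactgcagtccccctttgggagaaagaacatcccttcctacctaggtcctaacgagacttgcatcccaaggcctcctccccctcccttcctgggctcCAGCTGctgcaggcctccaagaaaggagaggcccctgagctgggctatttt
Myl1: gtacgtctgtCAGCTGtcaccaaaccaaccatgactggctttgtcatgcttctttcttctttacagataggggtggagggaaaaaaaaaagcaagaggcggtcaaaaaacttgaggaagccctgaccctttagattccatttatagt
Myl3: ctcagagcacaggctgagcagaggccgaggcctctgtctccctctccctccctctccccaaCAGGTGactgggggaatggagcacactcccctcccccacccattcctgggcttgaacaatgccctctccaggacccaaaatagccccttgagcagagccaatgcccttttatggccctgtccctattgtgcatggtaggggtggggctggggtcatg
Each of these 3 windows held 1 E-box, which began 51 bases before that start site in *Mylpf*, 224 in *Myl1* and 189 in *Myl3*. A CArG box, the site of serum response factor, was found once, in *Myl3* 85 bases before the start site. Over both strands of all 32851 windows of 250 bases, at least 1 E-box was held by 66.2% and at least 1 CArG box by 1.47%. A match of letters is a description, and the RNA data do not measure binding.

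The labels and the tissue were first checked. *Mybpc2* (gene ID 233199, chromosome 7 from 44501699 to 44524722) had 4964, 5450, 5101 and 7392 CPM (gene counts scaled to the size of the library) in WT replicates 1 to 4, and 4.35, 4.02, 38.3 and 3.85 CPM in C2-/- replicates 1 to 4. Its log2 fold change was −8.82 (SE 0.94, adjusted p = 0.0075 from the quasi-likelihood test of edgeR, adjusted by Benjamini-Hochberg), and C2-/- replicate 3 kept 0.67% of the WT mean. Libraries held between 25425993 and 29747692 estimated counts, and 3 counts were worth between 0.101 and 0.118 CPM. The 6 fast-fibre markers summed to between 88472 and 133150 CPM over both groups, while the 4 slow-fibre markers summed to between 2.34 and 31.9 CPM. WT replicate 4 had the highest slow-fibre sum, and the next highest was 11.2 CPM in WT replicate 1. The 4 heart markers in the table summed to between 3.94 and 9.06 CPM in WT and between 2.45 and 4.5 CPM in C2-/-. Of them, *Tnni3* had at most 3 counts in any library, and *Myl7* was not analysed here.

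None of the 10 genes passed the test between C2-/- and WT after adjustment over all tested genes. All 10 passed the filter on low counts. By the quasi-likelihood test of edgeR, 0 of 10 had an adjusted p under 0.05, where 0.0319% of the 12542 tested genes did. Before adjustment, 1 of 10 had a p under 0.05, *Myl2*, against 5.29% of all tested genes. The groups were fully apart in CPM for 1 of 10, again *Myl2*, against 3.38% of all tested genes. The log2 fold changes were above 0 in 5 and below 0 in 5 of the genes, with a median of −0.01 against −0.02 over all tested genes. In this RNA from whole muscle, fewer cells of a type and less RNA per cell cannot be told apart.

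**Figure D1:**
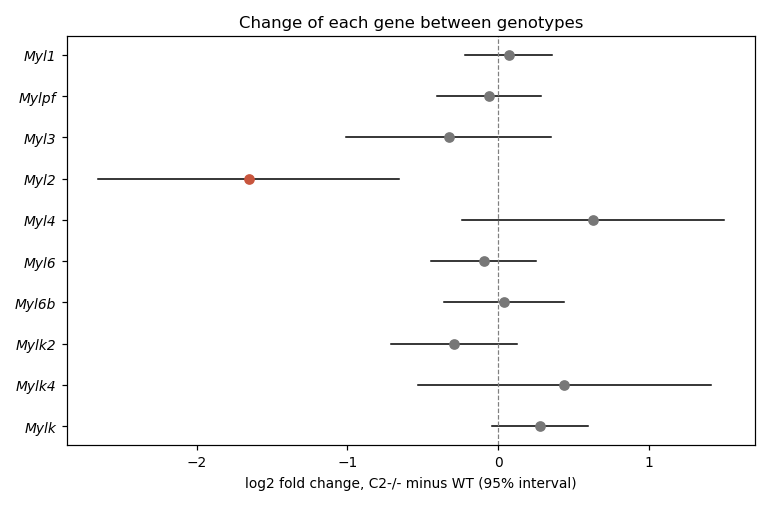
Log2 fold change (C2-/- minus WT, x axis) of each of the 10 genes (y axis), as the edgeR estimate with its 95% interval; the red point has an unadjusted p under 0.05. The interval of *Myl2*, from −2.65 to −0.66, is the only one that leaves out 0.

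The levels of the genes were compared per transcript length, as the TPM (counts scaled by transcript length and library) that the authors deposited. The fast pair stood far above the rest, with median levels over the 8 libraries of 18082 TPM for *Myl1* and 17112 TPM for *Mylpf*. *Myl1* was above *Mylpf* in 6 of 8 libraries, so their order was not the same in every mouse. *Mylk2* followed at a median level of 1139 TPM and *Mylk4* at 646 TPM, with *Mylk2* above *Mylk4* in 8 of 8 libraries. *Myl6* had a median level of 111 TPM, below *Mylk4* in 7 of 8 libraries.

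The light chains of other fibre types and tissues were lower still. The median level was 29.7 TPM for *Myl3*, which was below *Myl6* in 8 of 8 libraries, and 19.2 TPM for *Myl6b*. *Myl4* followed at 14.0 TPM, *Mylk* at 6.20 TPM and *Myl2* at 3.73 TPM. These last neighbours changed places in at least 1 library each: *Myl3* was above *Myl6b* in 7, *Myl6b* above *Myl4* in 6, *Myl4* above *Mylk* in 7 and *Mylk* above *Myl2* in 6 of 8 libraries. Together the 7 light chains held between 3.28% and 4.14% of all TPM of a library, and *Myl1* with *Mylpf* held between 99.41% and 99.59% of the light-chain TPM.

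**Figure D2:**
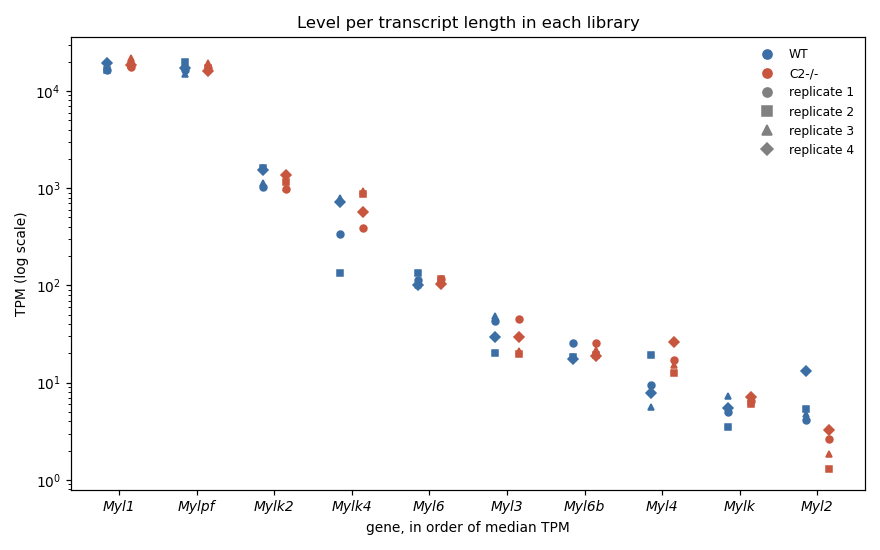
TPM of each gene (y axis, log scale) in the 4 WT and 4 C2-/- libraries, with genes on the x axis in order of their median. The fast light chains lie between 15050 and 21950 TPM, and *Myl2* between 1.29 and 13.1 TPM.

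The fast light chains were measured at nearly the same level in both genotypes. *Myl1* (gene ID 17901, chromosome 1 from 66924295 to 66945473, minus strand) codes for the fast essential light chains, a long and a short form from separate start sites that the table does not separate. It had 7571, 8403, 7302 and 8950 CPM in WT replicates 1 to 4 and 8195, 7798, 9933 and 7877 CPM in C2-/- replicates 1 to 4. C2-/- replicate 3 was the highest of the 8 libraries, and the other C2-/- values lay within the WT range. Its log2 fold change was 0.07 (SE 0.13, 95% interval −0.22 to 0.36, adjusted p = 0.987 from edgeR), and it was −0.02 without C2-/- replicate 3.

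*Mylpf* (gene ID 17907, chromosome 7 from 127208848 to 127214414, plus strand) codes for the fast regulatory light chain, the substrate of the skeletal kinase. It had 6428, 8325, 5225 and 6631 CPM in WT and 6582, 6028, 7193 and 5721 CPM in C2-/-, in the order of replicates 1 to 4. All C2-/- values lay between the WT extremes, which were replicates 2 and 3. C2-/- minus WT was −0.06 in log2 fold change (SE 0.16, 95% interval −0.40 to 0.28, adjusted p = 0.989 from edgeR), which amounts to 0.959 times the WT level with an interval from 0.756 to 1.22. Its sign turned to 0.07 without WT replicate 2 and to 0.0021 with total counts as the only scaling.

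The balance of the fast chains with each other and with the heavy chain was also given per length. *Myl1* stood at between 0.832 and 1.17 times *Mylpf* in TPM, with a mean of 1.029 ± 0.150 in WT and 1.104 ± 0.058 in C2-/- (SD, n = 4 each). The TPM of *Myl1* and *Mylpf* together was 2.40 ± 0.73 times that of the adult heavy chains *Myh4*, *Myh1*, *Myh2* and *Myh7* in WT and 2.11 ± 0.40 times in C2-/- (SD, n = 4 each). Each head carries both kinds of light chain, and the RNA ratio ranged from 1.68 to 3.15 among the 8 mice. It was highest in WT replicate 1 (3.15), WT replicate 2 (2.90) and C2-/- replicate 1 (2.65). These libraries also had the most negative balance of long and short transcripts, described below. The part of that balance in the ratio was not tested.

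*Myl2* was the member with the largest fitted difference between the genotypes. *Myl2* (gene ID 17906, chromosome 5 from 122100904 to 122113398, plus strand) codes for the slow and ventricular regulatory light chain. It had 1.35, 1.86, 1.34 and 4.13 CPM in WT replicates 1 to 4, from 35, 51, 36 and 114 counts. In C2-/- replicates 1 to 4 it had 0.833, 0.372, 0.568 and 0.971 CPM, from 22, 10, 16 and 28 counts. Every C2-/- library was below every WT library, and WT replicate 4 stood more than 2 CPM above the other libraries.

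The log2 fold change of *Myl2* was −1.66 (SE 0.45, 95% interval −2.65 to −0.66, unadjusted p = 0.00402, adjusted p = 0.615 from edgeR). The level in C2-/- was thus 0.317 times that in WT, with an interval from 0.159 to 0.634. Without WT replicate 4 the log2 fold change was −1.13 (unadjusted p = 0.0151, adjusted p = 0.948). Over the 17 other fits the adjusted p lay between 0.0736, with the Wald test of DESeq2, and 0.984, so the difference did not pass the adjusted threshold in any of them.

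*Myl3* (gene ID 17897, chromosome 9 from 110763681 to 110769794, plus strand), whose start region is printed above, codes for the slow and ventricular essential light chain, the partner of *Myl2*. Its CPM was 20.4, 10.4, 20.6 and 13.9 in WT and 21.0, 8.44, 9.58 and 12.9 in C2-/-, in the order of replicates 1 to 4. The groups overlapped widely, with replicate 1 of C2-/- the highest of the 8 libraries. Its log2 fold change was −0.33 (SE 0.31, 95% interval −1.01 to 0.35, unadjusted p = 0.306 from edgeR). Without C2-/- replicate 1 it was −0.66, with an unadjusted p of 0.0349 in the edgeR fit.

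The slow genes around them were few in counts and uneven among the mice. *Myh7*, the slow heavy chain, had 2.62, 0.365, 2.05 and 20.9 CPM in WT and 1.86, 0.446, 1.74 and 0.624 CPM in C2-/-. WT replicate 4 held the highest *Myh7* and the highest *Myl2*, whereas *Myl3* in that library was within the range of the others. The log2 fold change of *Myh7* was −2.47 (SE 0.999, unadjusted p = 0.0322, adjusted p = 0.914 from edgeR). Without WT replicate 4 it was −0.51 (unadjusted p = 0.458), so the difference rests on that mouse. The sum of the 4 slow-fibre markers was between 2.92 and 31.9 CPM in WT and between 2.34 and 7.95 CPM in C2-/-. The part of slow-fibre content in the *Myl2* difference was not tested.

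Of the 8 slow-fibre genes listed, all were tested, and 1 had an unadjusted p under 0.05, *Myh7*, against 5.29% of all tested genes. The count was 0 without WT replicate 4, C2-/- replicate 2 or C2-/- replicate 4, and 2 without WT replicate 2 or WT replicate 3. No adjusted p was under 0.05. The fold changes were above 0 in 2 and below 0 in 6, with a median of −0.20 against −0.02 over all tested genes. The most abundant of the list was *Mybpc1*, the slow myosin-binding protein C, at 2273 ± 338 CPM in WT and 2210 ± 350 in C2-/- (SD, n = 4 each). Next were *Atp2a2*, the slow calcium pump, at 30.5 ± 3.9 and 32.9 ± 3.6 CPM, and *Tpm3*, slow tropomyosin, at 28.1 ± 5.9 and 25.2 ± 4.4 CPM (SD, n = 4 each). *Mybpc1* stood far above the other listed genes, and the paper detected its protein in fast muscles. The list is therefore not a measure of slow fibres alone. For *Mybpc1* the log2 fold change was −0.04 (SE 0.15, adjusted p = 0.995 from edgeR). The paper reports more of its protein in aged C2-/- TA, a measure other than RNA.

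*Myl2* and *Myl3* were each set against *Myh7*, *Tnnc1*, *Tnni1* and *Tnnt1*, the slow heavy chain and troponins, over the 8 libraries in log2 CPM. In 0 of the 8 pairs did the correlation pass after adjustment. The closest was *Myl2* with *Myh7*, at Pearson's r = 0.65 (permutation p = 0.0874, adjusted p = 0.401) and Spearman's rho = 0.43 (permutation p = 0.299, adjusted p = 0.374). Without WT replicates 2 and 4, the libraries farthest from the median of *Myh7*, r was again 0.65 over 6 libraries (permutation p = 0.151) and rho was 0.83 (permutation p = 0.0583). *Myl2* with *Tnnt1* had r = 0.50 (permutation p = 0.213), which turned to −0.29 over 6 libraries without WT replicate 4 and C2-/- replicate 2 (permutation p = 0.6). *Myl3* with *Myh7* gave r = 0.42 (permutation p = 0.302) and rho = 0.64 (permutation p = 0.0962), and r = 0.72 without the same libraries (permutation p = 0.124).

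*Myl4* (gene ID 17896, chromosome 11 from 104550529 to 104587219, plus strand) codes for the embryonic and atrial essential light chain, which is made in developing and regenerating fibres. It had 4.86, 10.3, 2.50 and 3.76 CPM in WT and 8.33, 5.73, 7.24 and 11.8 CPM in C2-/-. WT replicate 2 was the only WT library inside the range of C2-/-, and the other WT libraries were below all C2-/- libraries. For *Myl4* the log2 fold change was 0.63 (SE 0.39, 95% interval −0.243 to 1.495, unadjusted p = 0.14, adjusted p = 0.968 from edgeR). Without WT replicate 2 it was 1.17 (unadjusted p = 0.00216, adjusted p = 0.421 from edgeR).

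Other embryonic and regenerating-fibre genes were read beside *Myl4*. Of the 6 listed, 3 had an unadjusted p under 0.05 and were higher in C2-/-, against 5.29% of all tested genes in either direction, and 0 had an adjusted p under 0.05. The list was chosen with earlier results of these data known. The paper had already named *Actc1* among the most changed genes of these samples, so the count is not independent of them. The paper called *Actc1* as differing in its own fit, whereas here its adjusted p was 0.920 from edgeR. *Myh3*, the embryonic heavy chain, had 1.97, 1.61, 2.43 and 1.23 CPM in WT and 2.61, 1.49, 8.76 and 3.09 CPM in C2-/-, with a log2 fold change of 1.14 (unadjusted p = 0.0406 from edgeR). *Myh8*, the perinatal heavy chain, had a log2 fold change of 0.91 (unadjusted p = 0.0433 from edgeR), and its level was 2.38 ± 1.26 CPM in WT and 4.46 ± 2.02 CPM in C2-/- (SD, n = 4 each). *Actc1*, cardiac actin, which skeletal muscle makes before birth, had 19.4 ± 13.0 and 37.1 ± 12.2 CPM (SD, n = 4 each), with a log2 fold change of 0.94 (unadjusted p = 0.0431 from edgeR).

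These calls depended on single mice. On leaving out each mouse the count fell to between 0 and 2 of 6, with 0 without WT replicate 4 or without C2-/- replicate 3, the mouse with the highest *Myh3*, *Myh8* and *Actc1*. Without C2-/- replicate 3 the log2 fold change of *Myh3* was 0.41 (unadjusted p = 0.248), that of *Myh8* 0.57 (unadjusted p = 0.167) and that of *Actc1* 0.77 (unadjusted p = 0.115, all from edgeR). Both groups overlapped in CPM for each of the 6 genes. *Myod1*, the myogenic factor with the highest level in the list, had 72.2 ± 55.4 CPM in WT and 76.3 ± 29.5 CPM in C2-/-, and *Myog*, the factor of differentiation, had 7.09 ± 6.45 and 4.70 ± 1.26 CPM (SD, n = 4 each). WT replicate 2, which was highest in *Myl4* among WT, was also the highest of all libraries in *Myod1* (154.8 CPM) and *Myog* (16.7 CPM). The median log2 fold change of the list was 0.49, against −0.02 over all tested genes, and 0.11 without C2-/- replicate 3.

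**Figure D3:**
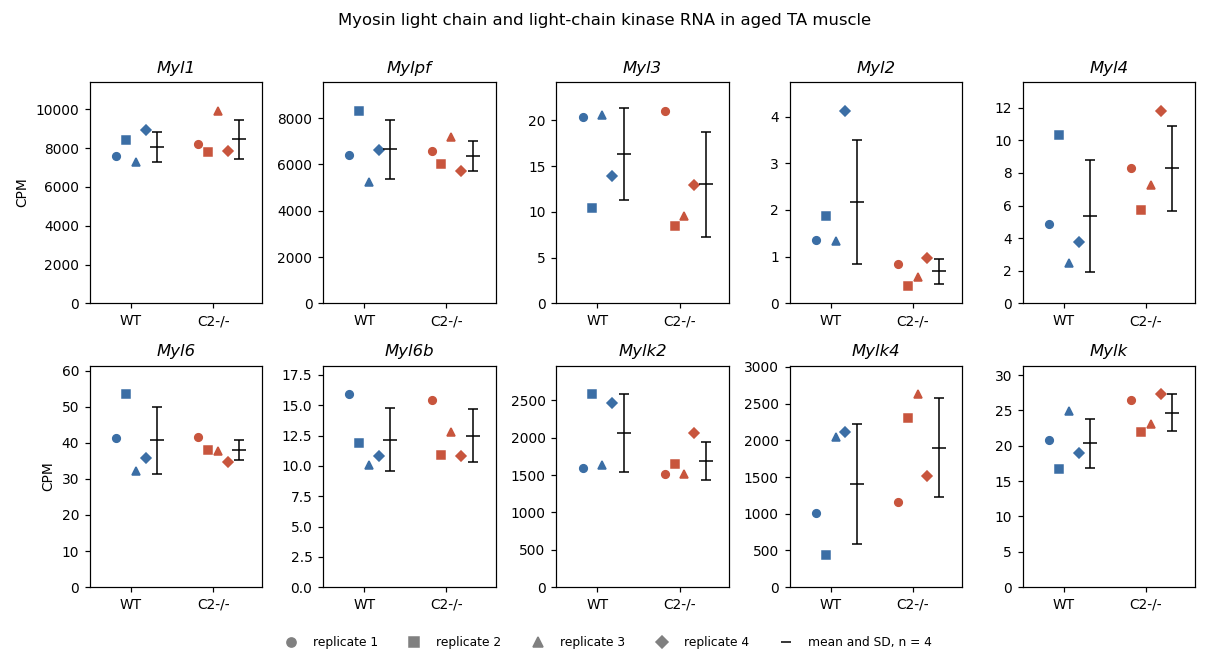
CPM of each of the 10 genes (y axis, from 0) in each mouse, with symbols for the replicate number and bars for the mean and SD (n = 4). Only *Myl2* separates the groups, with WT from 1.34 to 4.13 and C2-/- from 0.372 to 0.971 CPM.

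*Myl6* and *Myl6b*, neighbours on chromosome 10, code for essential light chains, *Myl6* for that of smooth-muscle and non-muscle myosin. *Myl6* (gene ID 17904, from 128479393 to 128493886, minus strand) had 41.4, 53.4, 32.2 and 35.9 CPM in WT and 41.6, 38.0, 37.8 and 34.7 CPM in C2-/-. Its highest and lowest libraries were both WT, and the log2 fold change was −0.10 (SE 0.16, 95% interval −0.45 to 0.25, unadjusted p = 0.55 from edgeR), which became 0.07 without WT replicate 2. *Myl6* was the only member with counts that were not whole, in 7 of 8 libraries.

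*Myl6b* (gene ID 216459, from 128494156 to 128498983, minus strand) ranged from 10.05 to 15.9 CPM in WT and from 10.9 to 15.4 CPM in C2-/-. Replicate 1 was the highest library in both groups. Between the groups the log2 fold change was 0.04 (SE 0.18, 95% interval −0.36 to 0.44, unadjusted p = 0.833 from edgeR), and its sign turned when WT replicate 3, WT replicate 4 or C2-/- replicate 1 was left out.

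Of the 7 other light-chain and kinase genes listed, 6 were in the table and 5 were tested. None of the 5 had an adjusted or an unadjusted p under 0.05, against 0.0319% and 5.29% of all tested genes, so the count says little of so short a list. The fold changes were above 0 in 4 and below 0 in 1, with a median of 0.09 against −0.02 over all tested genes. *Myl12a*, a non-muscle regulatory light chain, was the most abundant at 224 ± 91 CPM in WT and 186 ± 24 CPM in C2-/-. *Myl9*, the smooth-muscle regulatory light chain, had 28.3 ± 4.2 and 31.3 ± 7.0 CPM, and *Mylip*, a ubiquitin ligase named for its binding to light chains, had 15.2 ± 2.1 and 15.8 ± 3.7 CPM (SD, n = 4 each).

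*Mylk2* (gene ID 228785, chromosome 2 from 152911276 to 152923065, plus strand) codes for the skeletal light-chain kinase, the main kinase of *Mylpf* protein in fast muscle. It had 1591, 2577, 1633 and 2457 CPM in WT and 1516, 1646, 1518 and 2059 CPM in C2-/-. WT replicates 2 and 4 were above all C2-/- libraries, and WT replicates 1 and 3 lay within the C2-/- range. Its log2 fold change was −0.29 (SE 0.19, 95% interval −0.71 to 0.12, unadjusted p = 0.15, adjusted p = 0.968 from edgeR), which amounts to 0.816 times the WT level with an interval from 0.611 to 1.09.

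*Mylk4* (gene ID 238564, chromosome 13 from 32700801 to 32806773, minus strand), a striated-muscle member of the kinase family, varied most among the abundant members. It had 1009, 441, 2042 and 2119 CPM in WT and 1164, 2298, 2624 and 1512 CPM in C2-/-, a 5.95-fold span from the lowest to the highest library. The groups overlapped in most of their range, and the lowest library, WT replicate 2, was the highest in *Mylk2*. The fitted log2 fold change was 0.44 (SE 0.44, 95% interval −0.54 to 1.41, unadjusted p = 0.341 from edgeR), and it was 0.15 without WT replicate 2.

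In TPM the ratio of *Mylk2* to *Mylk4* ran from 1.08 to 12.2 among the 8 libraries. It was highest in WT replicate 2, which also had the most negative balance of long and short transcripts, described below. *Mylk4* held 26.3 ± 14.3% of the TPM of the 3 kinases in WT and 36.9 ± 9.9% in C2-/- (SD, n = 4 each). The summed kinase level was 1836 ± 369 TPM in WT and 1829 ± 295 TPM in C2-/-, so the sum was nearer in the groups than its parts. *Mylpf* stood at between 7.63 and 12.4 times the sum of *Mylk2* and *Mylk4* in TPM.

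*Mylk* (gene ID 107589, chromosome 16 from 34745199 to 35002436, plus strand) codes for the kinase of smooth muscle and non-muscle cells. It had 20.7, 16.7, 24.9 and 19.0 CPM in WT and 26.5, 21.9, 23.02 and 27.2 CPM in C2-/-. WT replicate 3 lay among the C2-/- libraries and the other WT libraries were below them. The log2 fold change was 0.28 (SE 0.14, 95% interval −0.04 to 0.60, unadjusted p = 0.0801, adjusted p = 0.968 from edgeR), and without WT replicate 3 it was 0.40 with an unadjusted p of 0.0177 in the edgeR fit.

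The markers of cells that use *Mylk*, *Myl6* and *Myl9* were read beside them. Of the 6 smooth-muscle genes listed, 0 had an adjusted or an unadjusted p under 0.05 (0.0319% and 5.29% of all tested genes), with 5 fold changes above 0, 1 below and a median of 0.16 against −0.02 over all tested genes. *Smtn*, smoothelin, had 108 ± 30 CPM in WT and 108 ± 10 CPM in C2-/-, *Acta2*, smooth-muscle actin, had 68.1 ± 10.9 and 80.8 ± 20.5 CPM, and *Myh11*, the smooth-muscle heavy chain, had 31.5 ± 9.0 and 37.6 ± 6.0 CPM (SD, n = 4 each). The 5 smooth-muscle markers summed to between 122 and 159 CPM in WT and between 146 and 199 CPM in C2-/-. The 4 fibroblast markers summed to between 271 and 365 CPM in WT and between 399 and 494 CPM in C2-/-, without overlap, and 2 of the 4 had an unadjusted p under 0.05, against 5.29% of all tested genes (3.38% of single genes had groups without overlap). Their part in the values of *Mylk* was not tested.

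The genes that set the phosphorylation of the light chain were counted as a list of 14, all tested. Before adjustment, 1 of 14 had a p under 0.05, and 1 of 14, *Ppp1cb*, had groups that did not overlap, against 5.29% and 3.38% of all tested genes. No adjusted p was under 0.05, and 7 fold changes were above 0 and 7 below, with a median of −0.03. *Ppp1r12b*, the myosin-targeting subunit of the phosphatase in striated muscle, had 213.5, 137.2, 265.2 and 224.9 CPM in WT and 249.5, 266.8, 318.1 and 355.6 CPM in C2-/-, with only WT replicate 3 inside the C2-/- range. Its log2 fold change was 0.50 (SE 0.20, unadjusted p = 0.0278, adjusted p = 0.882 from edgeR). The unadjusted p was 0.0506, 0.0643 and 0.0855 without WT replicate 1, C2-/- replicate 3 and C2-/- replicate 4.

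*Ppp1cb*, the catalytic subunit of the same phosphatase, was between 331.9 and 336.2 CPM in WT and between 310.9 and 319.0 CPM in C2-/-. The groups did not overlap, but the log2 fold change was only −0.09 (SE 0.09, unadjusted p = 0.341 from edgeR). The SD was 1.8 CPM in WT and 3.4 CPM in C2-/- (n = 4 each). As edgeR shares its estimate of spread among genes, this p does not measure that narrow spread alone. *Calm3*, whose product switches the kinases on, had 576 ± 68 CPM in WT and 581 ± 79 CPM in C2-/- (SD, n = 4 each).

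Other genes of the fast fibre, of the filaments and of calcium handling, were counted in the same way. Of 9 listed and tested, 0 had an adjusted or an unadjusted p under 0.05 (0.0319% and 5.29% of all tested genes), with 3 fold changes above 0, 6 below and a median of −0.06 against −0.02. *Atp2a1*, the fast calcium pump, had 60242 ± 8747 CPM in WT and 53151 ± 2680 CPM in C2-/-, *Myh4*, the heavy chain of type IIb fibres, had 45247 ± 16351 and 48319 ± 9903 CPM, and *Tnnt3*, fast troponin T, had 15623 ± 2003 and 15551 ± 1473 CPM (SD, n = 4 each).

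The exchange of one isoform for another was compared within each library, as the log2 ratio of counts with 0.5 added, so that no scaling between libraries entered. The balance of long and short transcripts, described below, can still enter such a ratio where the transcripts differ in length. This holds for *Mylk4* (5571 bases) and *Mylk2* (2951 bases), and its part was not tested. For each of 4 ratios, an exact two-sided permutation test took all 70 assignments of the mice, whose smallest p is 0.0286, and p-values were adjusted over the 4. The ratio of *Myl2* to *Mylpf*, the slow to the fast regulatory chain, was −12.20, −12.11, −11.90 and −10.64 in WT and −12.92, −13.91, −13.59 and −12.50 in C2-/-. The groups did not overlap, and the difference of −1.51 had an exact p of 0.0286, the smallest possible, and an adjusted p of 0.114. With 4 ratios, 1 ratio alone at that p cannot reach an adjusted p under 0.05. Without WT replicate 4 the difference was −1.16. In TPM, *Myl2* made up 0.0400 ± 0.0241% of the *Mylpf* and *Myl2* total in WT and 0.0133 ± 0.0059% in C2-/- (SD, n = 4 each).

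The other ratios overlapped between the groups. *Myl3* to *Myl1*, the slow to the fast essential chain, differed by −0.43 (exact p = 0.314, adjusted p = 0.314), with −9.00 ± 0.59 in WT and −9.43 ± 0.64 in C2-/- (SD, n = 4 each). *Myl4* to *Myl1*, the embryonic to the fast essential chain, differed by 0.71 (exact p = 0.2, adjusted p = 0.314), and by 1.07 without WT replicate 2 (adjusted p = 0.114 by the exact permutation test). Leaving out a mouse leaves fewer assignments, so the smallest possible p is then above 0.0286. *Mylk4* to *Mylk2* differed by 0.88 (exact p = 0.257, adjusted p = 0.314), with values from −2.55 to 0.32 in WT and from −0.45 to 0.79 in C2-/-, and by 0.29 without WT replicate 2.

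**Figure D4:**
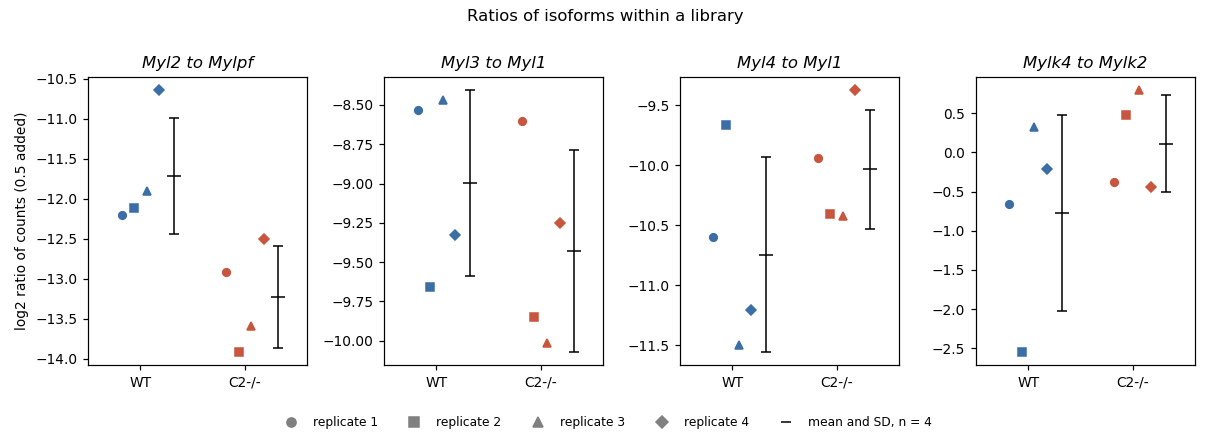
Log2 ratio of counts (0.5 added, y axis, its range set per panel) for each isoform pair in the 4 WT and 4 C2-/- libraries, with bars for the mean and SD (n = 4). Only the ratio of *Myl2* to *Mylpf* separates the groups, from −12.20 to −10.64 in WT and from −13.91 to −12.50 in C2-/-.

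Among themselves, the members were compared by how they varied over the 8 libraries of both genotypes. The correlations given here describe 8 libraries of log2 CPM that share their scaling, and no test was made of them. *Myl6* moved with *Mylpf* (Pearson's r = 0.86) and against *Mylk4* (r = −0.86). *Myl2* and *Mylk2* had r = 0.71, *Mylpf* and *Mylk* had r = −0.70, and the fast partners *Myl1* and *Mylpf* had r = 0.63. The slow partners *Myl2* and *Myl3* had r = 0.34.

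The libraries also differed in the balance of long and short transcripts, which was measured as the median log2 deviation of 2741 tested genes over 5000 bases minus that of 548 genes under 1000 bases. It was −0.27, −0.41, 0.32 and 0.18 in WT replicates 1 to 4 and −0.22, 0.17, −0.0046 and 0.25 in C2-/- replicates 1 to 4. *Mylk4*, with a longest coding transcript of 5571 bases, had its 3 lowest levels, between 441 and 1164 CPM, in the 3 libraries with the most negative balance, which were WT replicates 1 and 2 and C2-/- replicate 1. *Myl6*, whose longest coding transcript has 1668 bases, had its 3 highest levels, between 41.4 and 53.4 CPM, in the same libraries. It averaged 112 TPM at 39.4 CPM, beside 32.25 TPM at 14.7 CPM for *Myl3* (937 bases). The length used for the TPM of *Myl6* was therefore shorter than 1668 bases. Not every member followed its length: *Mylk*, with 7824 bases, had its second highest level (26.5 CPM) in C2-/- replicate 1. The short *Myl2*, *Myl3* and *Myl4*, with 889, 937 and 943 bases, did not follow it throughout. *Myl2* was highest in WT replicate 4, then in WT replicates 2 and 1. *Myl3* was highest in C2-/- replicate 1, then in WT replicates 3 and 1, although WT replicate 3 had the most positive balance. *Myl4* was highest in C2-/- replicate 4, then in WT replicate 2 and C2-/- replicate 1. *Mylpf*, the shortest member at 766 bases, was highest in WT replicate 2, then in C2-/- replicate 3 and WT replicate 4. The part of this balance in the differences between genotypes was not tested.

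**Figure D5:**
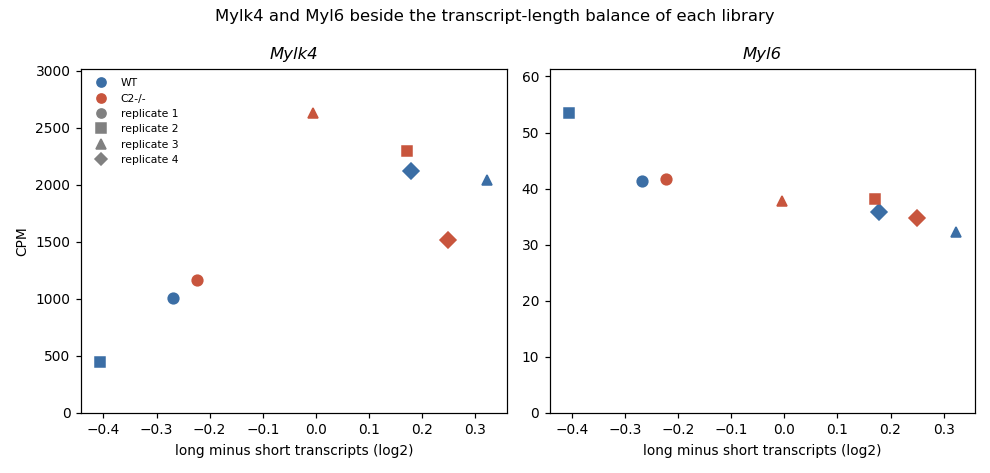
CPM of *Mylk4* and *Myl6* (y axes, from 0) against the balance of long and short transcripts of each library (x axis, log2, long minus short), with 1 point per mouse. *Mylk4* is lowest and *Myl6* highest in WT replicate 2, the library with the most negative balance, −0.41.

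Among all tested genes, those most like each member were found by Pearson's r over the 8 libraries, as a description in which the highest of 12542 values is taken. *Myl6* was followed most closely by *2010111I01Rik* (r = 0.99) and by the ribosomal protein genes *Rpl27* (r = 0.99) and *Rplp1* (r = 0.98). *Mylpf* was most like *Ring1* (r = 0.98), *Sdf2* (r = 0.97) and *Rpf2* (r = 0.96), and *Myl1* was most like *Ctsc* (r = 0.92), *Khdrbs1* (r = 0.91) and *Ttc33* (r = 0.91). *Myl2* was most like *Col9a1* (r = 0.97), *Morn4* (r = 0.97) and *Rnf34* (r = 0.92). Because r pools both genotypes, genes that also differ between them can rank high. *Col9a1* had 0.66 to 1.375 CPM in WT and 0.186 to 0.416 CPM in C2-/-. *Morn4* had 11.93 to 16.36 and 8.78 to 10.85 CPM, and *Rnf34* overlapped between the groups. No slow-fibre gene was among these 3, which is no test of slow-fibre content.

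*Myl3* was most like *Epn1* (r = 0.97), *Tbrg4* (r = 0.95) and *Fgfrl1* (r = 0.95), *Myl4* like *Arsa* (r = 0.94), *Hs1bp3* (r = 0.94) and *H2-DMb2* (r = 0.93), and *Myl6b* like *Phf5a* (r = 0.96), *Arhgef25* (r = 0.95) and *Mrps24* (r = 0.95). Of the kinases, *Mylk4* was most like *Itgav*, *Phtf2* and *Upf2* (r = 0.98 for each). *Mylk2* was most like *Ipo4* (r = 0.97), *Zbtb21* (r = 0.96) and *Stk26* (r = 0.95), and *Mylk* like *Tlr6* (r = 0.97), *Timm22* (r = 0.97) and *Frk* (r = 0.96). None of these 30 genes was itself a member.

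The deposited intervals of 5 members overlap a gene on the other strand, and the sources do not state that counting used the strand. The partner of *Myl2*, *Ccdc63*, had at most 1 count in a library, so almost no reads were assigned to the gene that overlaps *Myl2*. *Rcor3* beside *Myl1* had between 457 and 576 counts, and *Wrnip1* beside *Mylk4* had between 120 and 179, both far below their members. *Cdc27* beside *Myl4* had between 378 and 545 counts and *Smarcc2* beside *Myl6* between 2050 and 3026, both above their members in every library, so the values of *Myl4* and *Myl6* are uncertain to that extent.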

How the data were processed

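Polyadenylated RNA from the TA muscle of 4 WT and 4 C2-/- mice was sequenced on DNA nanoballs, with 1 library per mouse. The authors deposited 1 table with expected counts per gene, not normalized, and with TPM, which scale those counts by transcript length. The paper's methods name HISAT, GRCm38 and featureCounts, and the submitters' processing notes name HISAT, Bowtie2 and DESeq2 on GRCm38.p6. Between 5.5% and 6.53% of a library's values are not whole, so the counts are estimated; the tool that estimated them is not given in the sources used here. Counts were rounded. The 8 FPKM columns and the columns of the authors' own comparison (fold changes, p-values) were not used. A gene ID with counts was present in 16686 of 16687 rows, and 24 symbols were restored from gene IDs.

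The main test was edgeR 4.0.16 (quasi-likelihood, TMM factors between 0.929 and 1.03, default filter on low counts, Benjamini-Hochberg over 12542 genes) in R 4.3.3. CPM use TMM-scaled library sizes. Depth was between 25425993 and 29747692 counts per library. SE and intervals at 95% come from the edgeR fit, which shares its estimate of spread among genes. They are therefore not the spread of 1 gene between mice alone. All 28 pairs of libraries differed beyond counting noise. Simulated data were used to test the script. Alternatives were RLE factors, total counts, TMM without the members and the 50 most counted genes, limma-voom (limma 3.58.1) without and with quality weights, DESeq2 1.42.0, 2 other filters, the replicate block and leaving out each mouse. Log2 CPM had a prior count of 2. Sequences were taken from RefSeq promoter tables of GRCm38.p6, in which 9 of 10 members had an entry; exons came from GENCODE vM21. Pandas 2.3.3 and scipy 1.17.1 were used. The members and gene lists were chosen with earlier results of these data known, and the length balance and the leaving out of each mouse for list genes were added after the data had been seen. Named genes are all members, the 3 genes per list with the highest mean CPM, those with an unadjusted p under 0.05, and the 3 genes most like each member; *Ppp1cb* and the genes overlapping a member were also named for their values. A gene that this rule names is not reported here.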

Additional observations from a re-analysis of the deposited data

How the results depend on the processing

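No member had an adjusted p under 0.05 under any of the 17 alternatives. The number of members with an unadjusted p under 0.05, 1 in the main comparison, was 2 with limma-voom and sample quality weights and from 1 to 2 on leaving out single mice; the second gene was *Myl4* with quality weights or without WT replicate 2, *Mylk* without WT replicate 3 and *Myl3* without C2-/- replicate 1. Over all tested genes, 4 had an adjusted p under 0.05, against 39 with DESeq2 and from 4 to 7 on leaving out single mice, with 7 without WT replicate 2; the cause was not tested. *Myl2* kept its direction and an unadjusted p under 0.05 in 18 of 18 settings, from −1.87 to −1.13. On leaving out single mice, *Myl1* lay between −0.0184 and 0.137, *Myl6* between −0.187 and 0.0668, *Myl6b* between −0.0743 and 0.194 and *Mylpf* between −0.152 and 0.0725. These fold changes near 0 changed sign: *Myl1* to −0.0184 without C2-/- replicate 3, *Myl6* to 0.0411 with quality weights and 0.0668 without WT replicate 2, *Myl6b* to −0.0366, −0.00327 and −0.0743 without WT replicate 3, WT replicate 4 and C2-/- replicate 1, and *Mylpf* to 0.00209 with total counts, 0.0114 with quality weights and 0.0725 without WT replicate 2. The 4 isoform ratios kept their direction under all 11 alternatives.

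The correlation of deviations between same-numbered mice was 0.267 for number 1, above the highest with any other number (0.020), but between −0.051 and 0.042 for numbers 2 to 4, below the highest with another number, so the numbers were not taken to pair the mice. With the replicate block, 4 genes had an adjusted p under 0.05 and 660 an unadjusted one, *Myl2* was at −1.58 (adjusted p = 0.562), 1 member had an unadjusted p under 0.05, and no call changed. The paired sign-flip test of the ratios cannot go below 0.125. With 4 mice per group, the interval of *Mylk4* runs from 0.690 to 2.66 times the WT level. *Myl2* rests on 10 to 114 counts per library.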
